A study of Mus musculus with 16 samples.

Results

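Sgk1 and Dgka encode 2 signalling kinases of lymphocytes, a protein kinase and a lipid kinase, and both were read here across 6 sorted mouse lymphocyte populations. The members were all probe sets that the platform annotation gives to either symbol, which came to 1 probe set each (97890_at for Sgk1 and 103596_at for Dgka), 2 of 12422 probe sets and 2 of 8251 named genes. Both genes were chosen by their measured differences between innate-like and adaptive populations on these same arrays, so those values are a description and carry no test.

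The series set innate-like against adaptive lymphocytes on 16 single-colour oligonucleotide arrays. Splenic NKT cells, sorted as CD3+CD4+NK1.1+ (n = 3), were set against splenic CD4 T cells without NK1.1 (CD4T, n = 3). CD8aaT cells, TCRb+CD8a+CD8b- and selected with 10 mM of the agonist Smcy as the labels write it (n = 3), were set against CD8abT cells, TCRb+CD8a+CD8b+ and selected with 100 nM (n = 3). Both of the last came from RTOC, an abbreviation the labels leave unexplained, so agonist dose and population cannot be told apart, and no mouse strain is given for them. Peritoneal B1 cells, IgM(hi)IgD(int)CD11b+ (n = 2), were set against splenic B2 cells, IgM(int)IgD(hi)CD11b- (n = 2), so tissue and population cannot be told apart in that pair. The splenic and peritoneal cells came from wild-type C57BL/6 mice. About 100000 cells were sorted for each splenic or peritoneal sample and about 50000 for each RTOC sample.

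SGK1 is a serine/threonine kinase, named for its induction by serum and glucocorticoids, that belongs to the same AGC kinase group as AKT. Signals through PI3K switch it on by way of the mTORC2 complex and PDK1, and its substrates include the ubiquitin ligase NEDD4L, the NDRG1 protein and FOXO transcription factors. In T cells it is known for roles in helper cell differentiation. Dgka encodes diacylglycerol kinase alpha, which turns the membrane lipid diacylglycerol into phosphatidic acid. Diacylglycerol made by phospholipase C after antigen receptor engagement recruits RasGRP proteins and protein kinase C, so the enzyme limits Ras and protein kinase C signalling, and it is known as a factor of T cell anergy.

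Both genes lie on chromosome 10. RefSeq promoter windows of build GRCm38.p6, each running from 250 bases before a start site to 50 bases from it, number 6 for Sgk1 and 4 for Dgka. Printed are the last window of each gene along its strand, both of which held a motif, and the 1 window with a glucocorticoid response element, since that hormone gave Sgk1 part of its name. Capitals mark matches to 3 motifs searched on both strands: the glucocorticoid response element (AGAACA, any 3 bases, TGTTCT), the forkhead core TGTTTA, which FOXO factors can bind, and the TATA box TATAAA. All sequences run 5′ to 3′ along the strand of the gene.
Sgk1 start site 5, chr10:21993640-21993939, plus strand: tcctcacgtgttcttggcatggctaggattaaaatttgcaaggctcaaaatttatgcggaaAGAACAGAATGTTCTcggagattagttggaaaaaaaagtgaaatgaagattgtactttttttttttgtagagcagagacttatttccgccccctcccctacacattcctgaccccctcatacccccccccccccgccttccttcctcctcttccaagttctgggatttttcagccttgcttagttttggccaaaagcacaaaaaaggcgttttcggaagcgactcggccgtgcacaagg
Sgk1 start site 6, chr10:21994416-21994715, plus strand: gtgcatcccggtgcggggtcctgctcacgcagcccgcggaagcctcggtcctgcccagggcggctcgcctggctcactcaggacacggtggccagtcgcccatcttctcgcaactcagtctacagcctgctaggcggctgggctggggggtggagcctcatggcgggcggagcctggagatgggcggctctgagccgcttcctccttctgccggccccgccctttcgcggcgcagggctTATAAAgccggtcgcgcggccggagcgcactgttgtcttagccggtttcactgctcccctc
Dgka start site 4, chr10:128737563-128737862, minus strand: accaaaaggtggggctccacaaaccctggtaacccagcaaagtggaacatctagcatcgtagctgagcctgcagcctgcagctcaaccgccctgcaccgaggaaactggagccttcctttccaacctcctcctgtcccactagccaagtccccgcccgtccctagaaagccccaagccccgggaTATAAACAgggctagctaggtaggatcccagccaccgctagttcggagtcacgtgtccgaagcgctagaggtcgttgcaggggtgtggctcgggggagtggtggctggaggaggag

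Window 5 of Sgk1 held the full glucocorticoid element at 189 to 175 bases before the start site, in the form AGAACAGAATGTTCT. Of 32851 promoter windows of the same length, 3 held this motif (0.00913%). TATAAA stood in 2 of the 6 Sgk1 windows, numbers 4 and 6, and in 13.6% of all windows. In window 4 of Dgka TATAAA and the reverse complement of TGTTTA overlapped in a run of 8 bases, 66 to 59 bases before the start site, and TGTTTA or its complement was found in 13.4% of all windows. No Sgk1 window held the forkhead core, and the remaining 3 Dgka windows held none of the 3 motifs. A match describes these letters and does not show that a factor binds there.

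Sgk1 and Dgka transcripts were both lower in NKT cells than in splenic CD4 T cells. The deposited intensity of Sgk1 was 100.0, 101 and 109.7 in NKT replicates 1, 2 and 3, against 380.0, 311 and 346 in CD4T. Every NKT array lay below every CD4T array, and the highest NKT value was under the lowest CD4T value by a wide margin. On the log2 scale the Sgk1 difference was -1.74 ± 0.20 (SE of the fit, n = 3 each), a 3.33-fold lower level in NKT cells. Dgka read 362, 485 and 439 in NKT arrays, against 1075, 1314 and 1301 in CD4T arrays. Its groups did not overlap either, and the difference was -1.53 ± 0.29, or 2.88-fold lower in NKT cells. Among the differences of all 12422 probe sets in this pair, Sgk1 ranked 18 and Dgka 26 from the lowest, beside a median over all probe sets of -0.03. In bulk RNA, fewer cells that express a gene and less RNA per cell cannot be told apart.

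The gap in NKT cells was much the same in each numbered set of arrays. Arrays of the same number differed by -1.93, -1.63 and -1.66 for Sgk1 and by -1.57, -1.44 and -1.57 for Dgka, NKT minus CD4T. Replicate 1 of both groups stood apart from the others in the 5′ probe set of the 18S ribosomal control, at 675 in NKT and 1326 in CD4T, against 52.7 and 56.3 in the other NKT arrays and 59.2 and 54.4 in the other CD4T arrays. Without these 2 arrays the differences were -1.64 for Sgk1 and -1.50 for Dgka.

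B1 cells also had lower Sgk1 and Dgka than B2 cells. Sgk1 intensity was 67.4 and 53.8 in B1 replicates 1 and 2, against 184 and 109.5 in B2. The B1 values lay below the B2 values, but the B2 arrays were themselves far apart. The Sgk1 difference was -1.24 ± 0.24 (n = 2 each), a 2.36-fold lower level in B1 cells. Without B2 replicate 1 it was -0.86, and without B2 replicate 2 it was -1.61. Dgka was 152 and 148 in B1 arrays, against 332 and 293 in B2 arrays. These Dgka values were close within each group and did not overlap, with a difference of -1.06 ± 0.35, or 2.08-fold lower in B1 cells. Among the differences of all 12422 probe sets in this pair, Sgk1 ranked 46 and Dgka 72 from the lowest, beside a median of -0.05. Groups of 2 arrays can easily lie apart by the draw of arrays alone. The share of all probe sets whose groups lie apart was not counted, here or in the NKT pair. Replicate 1 had the higher 18S value in both groups, 776 against 33.4 for replicate 2 in B1 and 877 against 62.6 in B2. Within each replicate number, the differences were -1.45 and -1.03 for Sgk1 and -1.12 and -0.99 for Dgka.

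In the RTOC pair the groups overlapped for both genes. Sgk1 was 123, 110.5 and 123 in CD8aaT replicates 1, 2 and 3, against 142, 107 and 170.5 in CD8abT. CD8abT replicate 2 was the lowest of the 6 arrays, and the difference was -0.21 ± 0.20. Arrays of the same number differed by -0.20, 0.04 and -0.48 for Sgk1. Dgka was 178, 309 and 185 in CD8aaT arrays, against 193, 501 and 337 in CD8abT arrays. Replicate 2 was the brightest array in both groups, and the CD8aaT array lay below the CD8abT array of the same number each time, by -0.11, -0.70 and -0.86. The Dgka difference of -0.56 ± 0.29 was -0.23 without CD8abT replicate 2, -0.92 without CD8abT replicate 1 and -0.81 without CD8aaT replicate 2. That of Sgk1 was -0.05 without CD8abT replicate 3 and -0.39 without CD8abT replicate 2. The beta-actin control, probed at both ends of its transcript, had a 3′ over 5′ ratio of 5.8, 5.76 and 5.15 in CD8aaT, against 6.57, 11.6 and 7.92 in CD8abT. The 18S control was 66.5, 273 and 249 in CD8aaT, against 129, 857 and 716 in CD8abT. Their part in these differences was not tested.

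**Figure D1:**
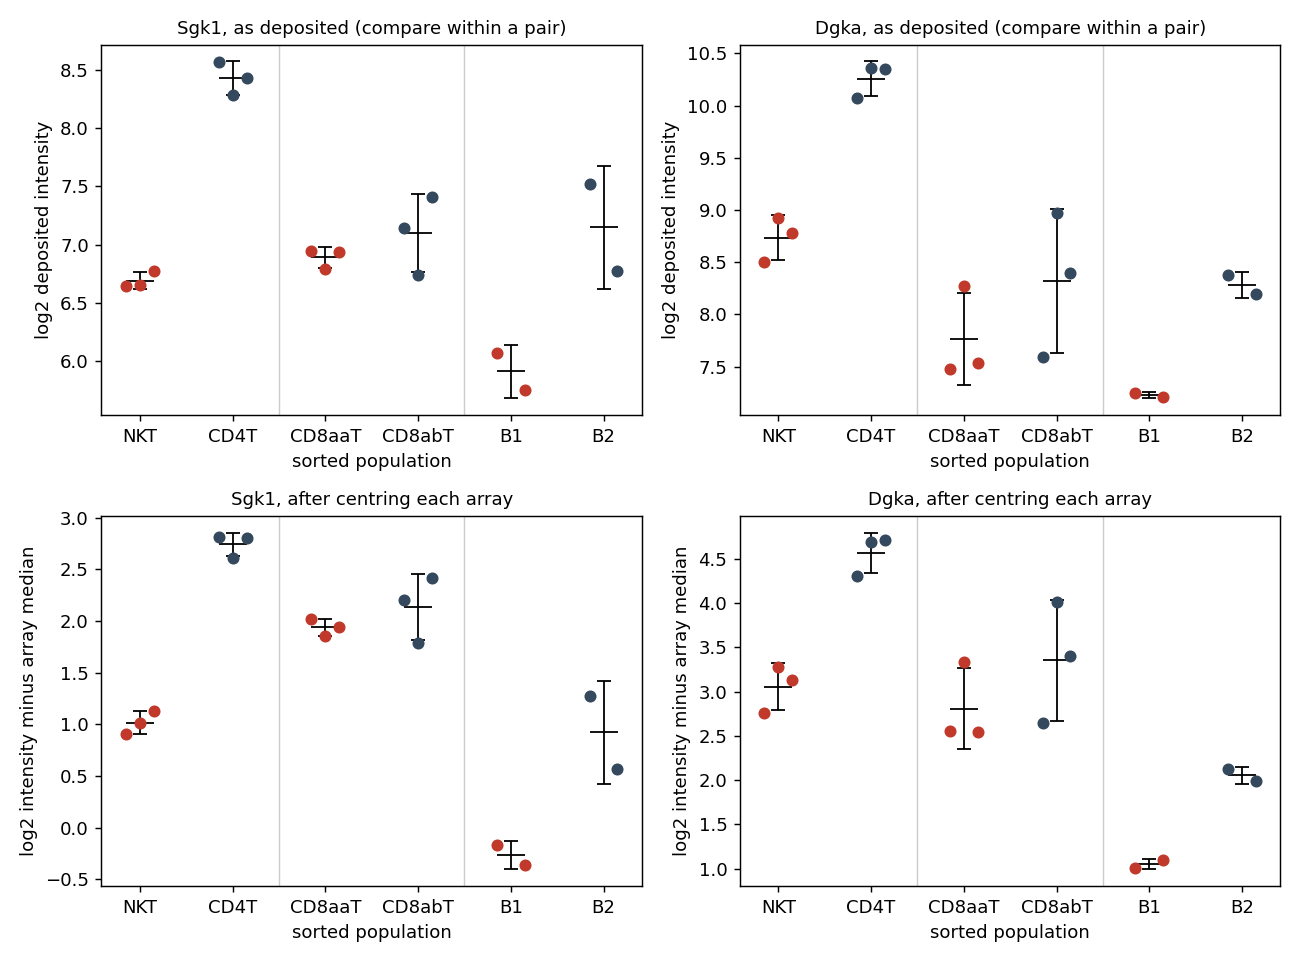
Values of Sgk1 (left) and Dgka (right) on each of the 16 arrays, as log2 deposited intensity (top) and as log2 intensity minus the median of the array (bottom). Points are arrays, red for NKT, CD8aaT and B1 and dark blue for CD4T, CD8abT and B2, and bars give the mean ± SD of 3 arrays (2 for B1 and B2). NKT and B1 arrays lie below their CD4T and B2 partners for both genes, while CD8aaT and CD8abT arrays overlap.

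**Figure D2:**
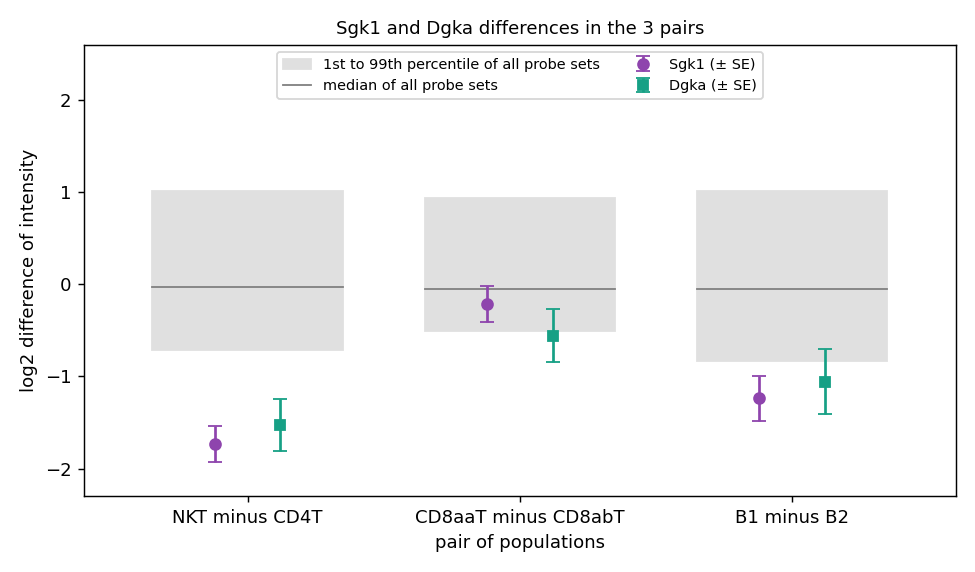
Log2 difference of intensity in each pair, with the SE of the fit, for Sgk1 (circles) and Dgka (squares). Grey boxes span the 1st to 99th percentile of the differences of all 12422 probe sets. Sgk1 lies below the box in the NKT and B1 pairs and inside it in the RTOC pair, at -0.21, and Dgka lies below the box in each pair, narrowly so in the RTOC pair, at -0.56 against a lower edge of -0.51.

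Array medians differed between pairs, from 30.4 to 31.8 in the RTOC arrays, 49.6 to 54.1 in the splenic T cell arrays and 69.3 to 76.2 in the B cell arrays, so levels were set across pairs only after each array's median was subtracted. On that scale Sgk1 was highest in CD4T at 2.74 ± 0.11 (log2 above the array median, SD), then CD8abT at 2.14 ± 0.32, CD8aaT at 1.94 ± 0.08, NKT at 1.01 ± 0.11, B2 at 0.92 ± 0.50 and B1 at -0.27 ± 0.14. The ranges of CD8abT and CD8aaT overlapped, as did those of NKT and B2, while the other neighbours in this order did not. After quantile normalization between all arrays NKT and B2 changed places. Dgka was also highest in CD4T, at 4.57 ± 0.23, then CD8abT at 3.35 ± 0.69, NKT at 3.06 ± 0.27, CD8aaT at 2.81 ± 0.46, B2 at 2.05 ± 0.10 and B1 at 1.05 ± 0.06. CD8abT overlapped with NKT and NKT with CD8aaT, and the order was the same after quantile normalization. Both genes were thus highest in splenic CD4 T cells and lowest in peritoneal B1 cells. Centring sets only the medians level, and values across pairs rest on it. The GAPDH control, also probed at both ends, had a 3′ over 5′ ratio of 20.9, 17.6 and 7.37 in CD8aaT and 24, 30.4 and 9.47 in CD8abT. In the splenic and peritoneal arrays this ratio was 5.11 to 8.48, a range that only CD8aaT replicate 3 shared. The part of this ratio in the order across pairs was not tested.

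The patterns of both genes were alike between groups but not within them. With each array set against the centre of its pair, Sgk1 and Dgka had a Pearson r of 0.78 over 16 arrays. It is a description with no test, because these arrays fall into groups and share normalization. Both genes were also chosen by their differences between these groups, so their likeness between groups follows in part from that choice. Dgka was 25th in likeness to Sgk1 among 10832 probe sets with 1 symbol. Without the NKT and CD4T arrays r was 0.49 (10 arrays). Around the group means it was -0.29 over 16 arrays. In CD4 T cells replicate 1 had the highest Sgk1 and the lowest Dgka intensity, while in B2 cells replicate 1 was the higher array for both genes.

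Ndrg1, whose protein product is a substrate of SGK1, had the pattern most like that of Sgk1 (r = 0.92 over 16 arrays, rho = 0.91). Its probe set 96596_at read 70.8, 50.4 and 56.4 in NKT arrays, against 127, 126 and 137 in CD4T arrays. In B cells it read 84.5 and 81.1 in B1, against 160.2 and 112 in B2. In the RTOC pair it read 62.1, 58.2 and 76.3 in CD8aaT, against 53.2, 51.9 and 64.1 in CD8abT. The r was 0.83 without the NKT and CD4T arrays and, unlike that of Dgka, stayed above 0 around the group means (0.63, 16 arrays). Ndrg1 was picked as the most alike of 10832 probe sets on these same arrays, so all these values follow in part from that choice. Dgka was not picked by its likeness to Sgk1, so the values of Ndrg1 and Dgka are not on equal terms. The next genes by likeness to Sgk1 were Gm11346 (r = 0.90), the lymph node homing receptor gene Ccr7 (0.89), Id3, which encodes an inhibitor of E proteins (0.89), and Pdlim4 (0.86). The most opposite patterns were those of Plac8 (-0.95), the fibrinogen-like gene Fgl2 (-0.94) and Ckb, a creatine kinase gene (-0.90).

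Dgka had its most similar patterns in Klf7, which encodes a Krüppel-like factor (r = 0.93), Gm11346 (0.89), Banp (0.88), Spsb1 (0.87) and the calponin gene Cnn3 (0.85). Klf7 was -1.54 ± 0.28 in NKT against CD4T cells, -0.32 ± 0.28 in CD8aaT against CD8abT cells and -0.33 ± 0.34 in B1 against B2 cells. Gm11346 was on the list of both genes, at -2.48 ± 0.34, -0.39 ± 0.34 and -1.39 ± 0.42 in the same 3 pairs. Tmem159 (-0.92), Plac8 (-0.89) and Fgl2 (-0.88) were the most opposite. Plac8 and Fgl2, opposite to both kinases, were 2.43 ± 0.17 and 3.25 ± 0.20 in NKT against CD4T cells and 1.64 ± 0.20 and 2.74 ± 0.25 in B1 against B2 cells. By rank correlation 7 of the 8 genes named for Sgk1 were named again, and 5 of 8 for Dgka.

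**Figure D3:**
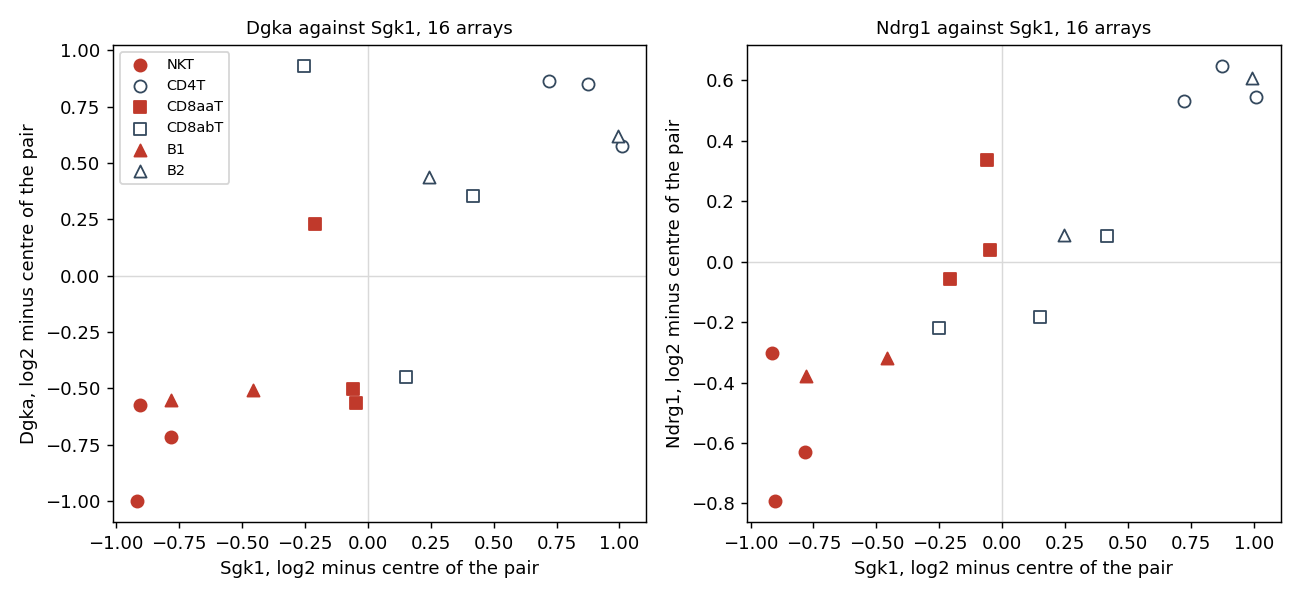
Dgka (left) and Ndrg1 (right) against Sgk1 on 16 arrays, each axis in log2 intensity minus the centre of the array's pair of populations. Circles are the splenic T cells, squares the RTOC cells and triangles the B cells, filled for NKT, CD8aaT and B1 and open for CD4T, CD8abT and B2. NKT and B1 arrays sit at the lower left and CD4T and B2 arrays at the upper right in both panels.

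The pathway genes around both kinases were read from 10 lists, of which 89 of 144 genes were measured, by 128 probe sets. The members are not on the lists, and each list gene was tested in the fit of all probe sets. In NKT against CD4T cells, 11 of the 128 probe sets, of 8 genes, passed the test (adjusted p under 0.05 from limma, Benjamini-Hochberg over 12422 probe sets), 4 higher and 7 lower, or 8.59%, beside 1.63% of all probe sets (1.09% higher and 0.539% lower). In CD8aaT against CD8abT cells 1 passed (0.781%, beside 0.185% of all, 0.153% higher and 0.0322% lower), and in B1 against B2 cells 2 passed (1.56%, beside 1.14% of all, 0.789% higher and 0.354% lower). The medians over the 128 probe sets were -0.01, -0.04 and -0.07 in the 3 pairs, beside -0.03, -0.05 and -0.05 over all probe sets. The lists were drawn up with earlier results of these data known, Ccr7, Klf2, S1pr1, Anxa1, Ctla4 and Bcl2l11 among them. The shares called are therefore a description and not a test of the lists.

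Kinases related to SGK1 and genes of the pathway upstream of it did not pass the test. Akt1, a close relative of Sgk1, was 0.32 ± 0.20 in NKT, 0.16 ± 0.20 in CD8aaT and 0.22 ± 0.25 in B1 cells relative to their partners, and Akt2 was -0.02 ± 0.18, 0.14 ± 0.18 and -0.06 ± 0.22. Sgk2 and Sgk3 were not analysed here. Of the PI3K, PDK1 and mTOR genes 12 of 23 were measured, none passed in any pair, and their medians were 0.20 in NKT, -0.00 in CD8aaT and -0.08 in B1 cells. This list holds Inpp5d, Tsc1 and Tsc2 beside kinase genes, so its medians mix genes of different roles. Once replicate number entered the fit as a block, Inpp5d, which encodes the lipid phosphatase SHIP1, passed in NKT cells (0.75 ± 0.14, adjusted p = 0.0095 from limma), as did 1 probe set of Tsc2 (0.45 ± 0.10, adjusted p = 0.021 from limma). A second probe set of Inpp5d, dimmer, was -0.25 ± 0.17 without the block.

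Among substrates and partners of SGK1, 13 of 22 genes were measured and 4 passed in NKT cells, 3 lower and 1 higher. Ndrg1 fell on both of its probe sets, by -1.01 ± 0.16 on the brighter one (adjusted p = 0.0031 from limma) and by -1.15 ± 0.17 on the one whose values are given above. The brighter one read 96.3, 71.4 and 75.3 in NKT, against 177, 140.4 and 170.1 in CD4T. Ndrg2, a relative of Ndrg1, fell by -0.94 ± 0.16 (adjusted p = 0.0059), on a dim probe set with 17.4 to 18.5 in NKT against 32.3 to 35.3 in CD4T arrays. Without replicate 1 of NKT and CD4T the difference was -0.90 and no longer passed. Its other probe set was -0.80 ± 0.20 without the replicate block and passed only with it (SE 0.14, adjusted p = 0.0077 from limma). Nedd4l, which encodes the ubiquitin ligase that SGK1 restrains, fell by -0.67 ± 0.15 on 1 probe set (adjusted p = 0.029, lost in 9 of 22 alternatives) and was -0.08 ± 0.15 on the other.

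Nedd4, which encodes the founding ligase of that family, went the other way. It read 76.8, 128 and 119.7 in NKT arrays, against 22.2, 22.4 and 20.6 in CD4T arrays. No NKT value came near the CD4T range, and the difference was 2.28 ± 0.24, or 4.86-fold higher (adjusted p = 6.7e-05 from limma). A dim second probe set rose as well (0.80 ± 0.18, adjusted p = 0.036). Foxo3, encoding a FOXO factor, was 0.92 ± 0.26 in NKT cells without the replicate block and passed only with it (SE 0.10, adjusted p = 0.00021 from limma). No gene of this list passed in the other pairs, Ndrg1 being 0.23 ± 0.16 in CD8aaT and -0.63 ± 0.20 in B1 cells on its brighter probe set. With the block Gsk3a passed in CD8aaT cells (-0.66 ± 0.12, adjusted p = 0.024 from limma).

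Of glucocorticoid-induced genes all 15 were measured, and 1 passed, Anxa1, which encodes an annexin, higher in NKT cells (2.73 ± 0.24, adjusted p = 1.5e-05 from limma). It read 194, 133 and 153 in NKT, against 27.2, 18.5 and 26.8 in CD4T. Of its 2 other probe sets 1 passed too (2.26 ± 0.26) and 1 passed only with the replicate block (0.58 ± 0.15 without it, adjusted p = 0.016 with it, from limma). The glucocorticoid-induced Tsc22d3 was -0.05 ± 0.14, -0.02 ± 0.14 and 0.06 ± 0.17 in the 3 pairs, and the receptor gene Nr3c1, a dim probe set, was 0.29 ± 0.11, -0.07 ± 0.11 and -0.05 ± 0.13. Ddit4, encoding an inhibitor of mTORC1, was -1.12 ± 0.27 in NKT cells without the replicate block and passed only with it (SE 0.22, adjusted p = 0.014 from limma). Il7r, the interleukin 7 receptor gene, likewise passed only with the block, in CD8aaT cells (1.71 ± 0.27, adjusted p = 0.011 from limma).

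On the diacylglycerol side, no other diacylglycerol kinase was analysed here, and none of the measured phospholipase C (5 of 12), effector (11 of 18) or phosphatidic acid genes (13 of 16) passed in any pair. Their medians lay between -0.14 and -0.01. Rasgrp1, encoding the Ras activator that diacylglycerol recruits in T cells, was -0.09 ± 0.16 in NKT cells, and Prkcq, encoding protein kinase C theta, was -0.17 ± 0.25 on its brighter probe set. Plcg1, encoding the main phospholipase C of T cells, was -0.15 ± 0.14. With the replicate block Rasgrp2 passed as lower (-0.47 ± 0.12, adjusted p = 0.047 from limma) and 1 probe set of Prkcb as higher (0.50 ± 0.11, adjusted p = 0.027 from limma) in NKT cells, and Prkd3 as higher in CD8aaT cells (0.84 ± 0.18, adjusted p = 0.034 from limma).

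Of 9 measured anergy genes, the class to which Dgka is usually counted, Ndrg1 fell in NKT cells and Ctla4, encoding an inhibitory receptor, rose in B1 cells. Ctla4 read 60.7 and 132 in B1, against 24.8 and 30.0 in B2, a difference of 1.71 ± 0.37 (adjusted p = 0.035 from limma, lost in 10 of 20 alternatives). T cell marker sums were 2707 to 3167 in B1, against 1509 to 2075 in B2, with Cd2 at 1.25 ± 0.29 and Cd3g at -0.02 ± 0.53. Of 11 measured T cell markers 2 were above 0 and 9 below, with a median of -0.11. The part of T cell markers in this rise was not tested. In NKT cells Ctla4 was -0.87 ± 0.30 without the replicate block and passed only with it (SE 0.20, adjusted p = 0.032 from limma). Nr4a1 also passed there only with the block (-0.50 ± 0.10, adjusted p = 0.017 from limma). No anergy gene passed in CD8aaT cells. The medians of the list were -0.29 in NKT, 0.09 in CD8aaT and -0.15 in B1 cells.

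Among FOXO target genes 3 passed in NKT cells, all of them lower and all of them known from earlier results of these data. The list had a median of -0.11, with 8 genes below 0 and 5 above, beside 56.9% of all probe sets below 0. Of 13 measured, Ccr7 fell by -2.09 ± 0.24 (adjusted p = 0.00016 from limma), Klf2, encoding a factor of quiescent T cells, by -1.54 ± 0.25 (adjusted p = 0.0034) and S1pr1, the receptor gene for egress from lymphoid tissue, by -1.36 ± 0.13 on its brighter probe set (adjusted p = 2.4e-05). The dim second probe set of S1pr1 was -0.29 ± 0.23. In B1 cells Klf2 was 0.25 ± 0.30 and S1pr1 0.10 ± 0.16, while Gadd45a, a growth arrest gene, fell, with 48.9 and 42.9 in B1 against 128 and 118 in B2 (-1.43 ± 0.17, adjusted p = 0.00031 from limma). In CD8aaT cells the gene of the apoptosis inducer Bim, Bcl2l11, rose on the brightest of its 3 probe sets (1.24 ± 0.20, adjusted p = 0.026 from limma, lost in 8 of 21 alternatives), and the other 2 were -0.12 ± 0.15 and -0.07 ± 0.13. Sesn1 passed with the replicate block as higher in NKT cells (0.95 ± 0.16, adjusted p = 0.0044 from limma), and Ccr7 as lower in CD8aaT cells (-0.86 ± 0.20, adjusted p = 0.049 from limma).

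**Figure D4:**
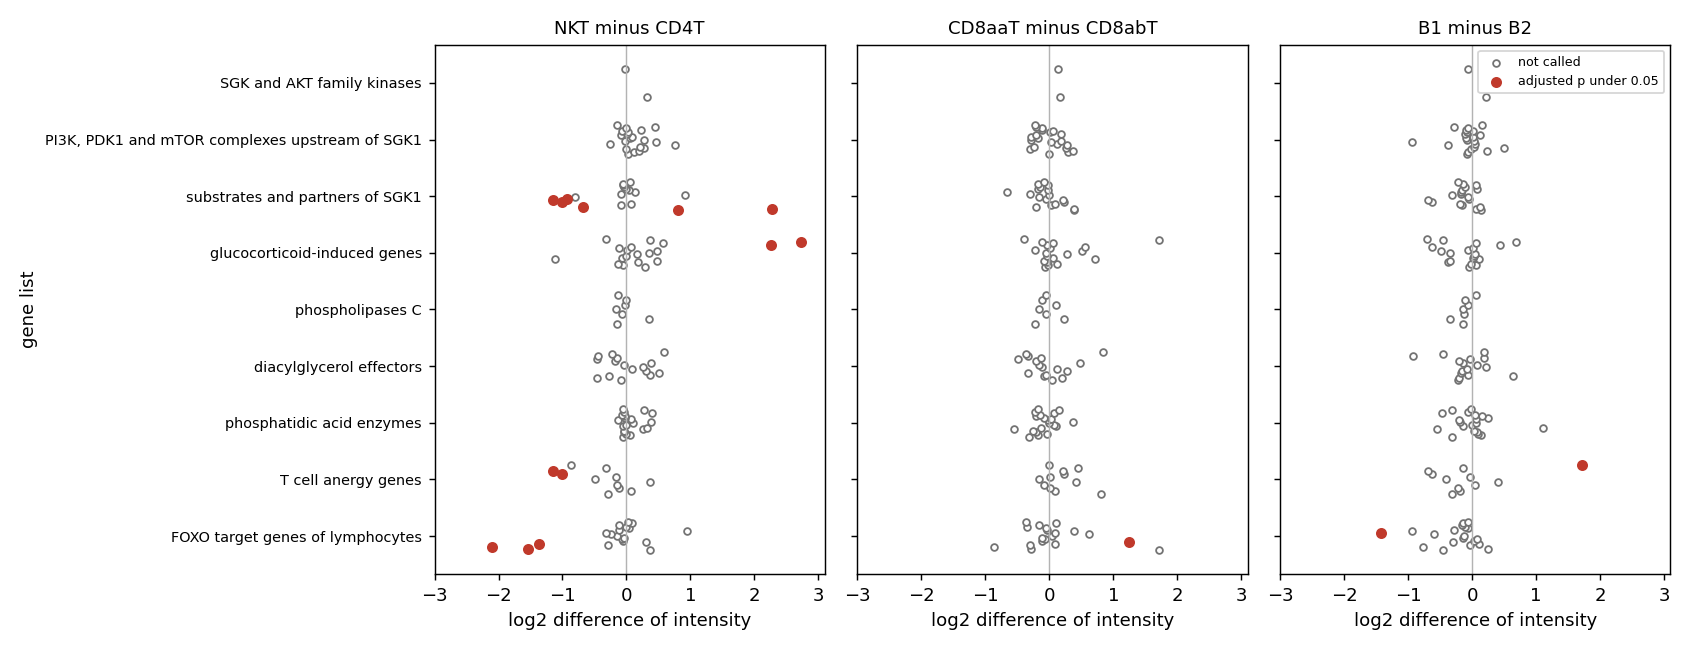
Log2 difference of intensity for every probe set of the 9 pathway lists with a measured gene, in the 3 pairs, with filled points at an adjusted p under 0.05 from limma. Filled points gather in the NKT panel, among SGK1 substrates and partners (Ndrg1, Ndrg2 and Nedd4l below 0, Nedd4 above 0), Anxa1, and the FOXO targets Ccr7, Klf2 and S1pr1, while phospholipase C, diacylglycerol effector and phosphatidic acid genes hold none.

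Markers of other cells were read beside these results, by the summed intensity of each list. In NKT against CD4T arrays 4 of 13 B cell markers were called higher (Cd72, H2-Aa, H2-Ab1 and H2-Eb1), with sums of 2523 to 4504 in NKT and 1466 to 2808 in CD4T, and of 30880.4 to 34356 in B2 arrays. Of 13 macrophage markers Lyz2 and Csf1r were higher, with sums of 674 to 857 in NKT and 511 to 714 in CD4T. Of 11 NK cell markers, which NKT cells also use, 5 were higher (1415 to 1954 in NKT, 558 to 574 in CD4T). With the replicate block Blnk, Ms4a1, Gzma and Zap70 were also called higher and Cd247 and Cd5 lower. In CD8aaT against CD8abT arrays Klrd1 (lost in 12 of 21 alternatives) and the mast cell and progenitor marker Kit were higher, and T cell marker sums were 2949.8 to 5338 in CD8aaT and 3623 to 6988 in CD8abT. With the replicate block 4 T cell markers (Cd2, Cd5, Cd6 and Thy1) and Lyz2 were called lower in CD8aaT, and Tyrobp, Klrb1a and Fcer1g higher. In B1 against B2 arrays Lyz2 and the epithelial marker Epcam were higher, 4 B cell markers (Cd22, Cd72, Cr2 and Fcer2a) were lower, and macrophage sums were 922 to 1117 in B1 and 838 to 847 in B2. The deposited RMA values were above 0 for every marker, granulocyte, erythroid and stroma lists included, which does not show that a marker was expressed. The part of these markers in the differences of Sgk1 and Dgka was not tested.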

How the data were processed

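RNA of 16 sorted lymphocyte samples was measured on 1 array each. The authors deposited linear intensities, 1 per probe set and array, made with RMA per the submitters' processing notes. The RMA version, its settings and the sets of arrays it was run on are not given in the sources used. RMA compresses differences of dim probe sets.

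Of 12488 probe sets 66 controls were left out. The platform annotation gives 10833 probe sets 1 symbol, 396 several and 1193 none, and 10817 matched a RefSeq table by Entrez number. Groups and replicate numbers came from sample titles. Log2 intensities were fitted with limma 3.58.1 in R 4.3.3 (lmFit, eBayes, 6 group means over 16 arrays, two-sided, Benjamini-Hochberg over 12422 probe sets), and the script was tested on simulated data. The series calls its replicates biological without naming animals, so the p-values cover only the spread among these samples, which may in part be technical, and the number of arrays limits the precision. Same-numbered arrays had correlated deviations from their group means, at 0.65 to 0.76 in NKT and CD4T and at 0.60 to 0.66 in CD8aaT and CD8abT, so these numbers were taken to pair the samples. The pairing comes from the values alone, with no label behind it. In NKT and CD4T it sets replicate 1 apart from the others but does not tell replicates 2 and 3 apart, since replicate 2 of one group and 3 of the other correlated at 0.57 and 0.68. In B1 and B2, with 2 arrays per group, same numbers correlated at 0.694 and different numbers at -0.694, which is 1 value with its sign turned. The block held a term for this pair too, so blocked calls in B1 cells rest on numbers not shown to pair the samples. Blocked values are given where they change a call of a pathway gene, and blocked marker calls by name. In brackets with a blocked p-value, the SE is that of the blocked fit unless marked otherwise.

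Members and gene lists were chosen with earlier results of these data known. Named were the members, their measured relatives, every list gene called in a pair, genes called only with the block, and the 5 genes most like and 3 most opposite to each member by Pearson r. Genes of the lists given without a call were chosen for their place in the pathway after their values were seen. Alternatives were the replicate block, the arrays of each pair alone, an offset of 32 before log2, leaving out probe sets with a mean level below the median, quantile normalization and leaving out each array. Promoter sequences came from RefSeq (GRCm38.p6).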

Additional observations from a re-analysis of the deposited data

Results flagged for a closer look

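Among the called genes of the pathway lists, 8 differed between pairs by a contrast of the pair differences themselves (limma, Benjamini-Hochberg over 12422 probe sets). The NKT difference exceeded the CD8aaT difference for Anxa1 by 2.84 (adjusted p = 0.00081) and for Nedd4 by 1.89 (adjusted p = 0.018), and it exceeded the B1 difference by 2.04 (adjusted p = 0.012) and 2.21 (adjusted p = 0.0069). It lay below the CD8aaT difference for S1pr1 (-1.46, adjusted p = 0.0009) and for the brighter probe set of Ndrg1 (-1.24, adjusted p = 0.02). It lay below the B1 difference for S1pr1 (-1.46, adjusted p = 0.0012), Klf2 (-1.79, adjusted p = 0.035) and Ctla4 (-2.58, adjusted p = 0.01), and above it for Gadd45a (1.11, adjusted p = 0.017). The CD8aaT difference exceeded the B1 difference for Gadd45a by 1.51 (adjusted p = 0.0035) and for Bcl2l11 by 1.54 (adjusted p = 0.045, from limma as all values here). No group held enough arrays for a check of single arrays against their group.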

How the results depend on the processing

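Every alternative run left both kinases lower in NKT, CD8aaT and B1 than in their partners. The block, the arrays of the pair alone, leaving out dim probe sets and leaving out arrays of other groups cannot change a difference. With an offset of 32 the Sgk1 difference was -1.48 in NKT and -0.92 in B1 cells, as an offset shrinks dim values. With 1 array left out at a time, Sgk1 lay between -1.81 and -1.67 in NKT, -0.39 and -0.05 in CD8aaT and -1.61 and -0.86 in B1 cells, and Dgka between -1.62 and -1.41, -0.92 and -0.23, and -1.15 and -0.97. Leaving out replicate 1 of NKT and CD4T together, chosen after seeing the data, gave -1.64 for Sgk1. The number of probe sets called was 202, 23 and 142 in the NKT, CD8aaT and B1 pairs. With the replicate block it was 601, 398 and 353, in a fit with fewer residual degrees of freedom, while the differences themselves were equal, and the block changed no pathway call other than those given above and, in B1 cells, adding Ndrg1, Prkd2 and Sesn1 as lower and Pld4 as higher. Among markers in B1 cells it added Cd2 and Tyrobp as higher and H2-Ab1 and Pax5 as lower. These blocked calls in B1 cells rest on replicate numbers that were not shown to pair the samples. With probe sets below the median level left out it was 133 in NKT and 71 in B1 cells, with fewer probe sets tested. With the arrays of the pair alone it was 2 in CD8aaT and 50 in B1 cells, and with the offset 9 and 214; the cause was not tested. With 1 array left out it was 134 (without NKT replicate 2) to 242 in NKT cells, 10 (without CD8aaT replicate 2) to 57 (without CD4T replicate 1) in CD8aaT cells and 64 (without B2 replicate 2) to 164 in B1 cells. Of 11 pathway calls, counted as 1 probe set per gene and pair over all pairs, 7 held in every alternative. These are not the 11 probe sets called in NKT cells, and further called probe sets of Nedd4, Anxa1 and Ndrg1 are not among them. Ctla4 lost its call in 10 of 20, Nedd4l in 9 of 22, Bcl2l11 in 8 of 21 and Ndrg2 in 1 of 21. Among marker calls in NKT cells H2-Ab1 was lost in 18 of 22, Prf1 in 16 of 22 and Csf1r in 12 of 21.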
